A study of Caenorhabditis elegans with 28 samples.

Results

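Peaks of the Notch intracellular domain in Caenorhabditis elegans were set against peaks of tagged GFP controls. The lists compared were chosen by sample title. They comprised immunoprecipitates of 4 Notch samples (a to d), 3 Flag-titled controls (a to c) and 3 Myc-titled controls (a, c and d), which is 10 of the 14 peak lists and draws on a series of 28 samples. Notch worms were of strain pJK1662 and carried GLP-1 with a tag at its C terminus, and their samples were labelled with a Myc antibody. Control worms were of strain pJK1728, described by the series as carrying Flag- and Myc-tagged GFP. Both kinds of control samples, those titled Myc included, were labelled with a Flag antibody, so the antibody of the Myc-titled controls is uncertain. By these labels both antibody and strain differ between Notch and controls, and they cannot be told apart from the tagged protein. All worms were L4 larvae grown at 20 °C, chromatin came from whole animals, each precipitation used 10 µg of antibody and 4 mg/mL extract, and the high-salt wash was left out in all groups. The series calls the replicates biological.

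GLP-1 is a receptor of the Notch family that keeps germline stem cells of the worm from entering meiosis. Binding of its ligand on the neighbouring somatic niche cell releases the intracellular domain, which enters the nucleus. There it acts with LAG-1, a DNA-binding protein of the CSL family, and the coactivator SEL-8 to switch on target genes, of which lst-1 and sygl-1 are known in germline stem cells. In chromatin of whole animals, binding in few cells and weak binding in many cells cannot be told apart. The regions below carry ce10 coordinates and no gene names, because no ce10 annotation was used here.

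The 10 lists held 23717 peaks at 3.13 to 16.8 M tags a library, 9433 of them Notch peaks and 14284 control peaks. Notch a, b, c and d held 826, 44, 8261 and 302 peaks, against 127, 45 and 83 in Flag controls a, b and c and 8078, 5824 and 127 in Myc controls a, c and d. The 3 lists of over 5000 peaks (Notch c, Myc control a and Myc control c) thus span both groups. Each list had a single peak width, 194, 277, 252 and 299 bp in Notch a, b, c and d. It was 254, 163 and 272 bp in Flag controls a, b and c and 156, 202 and 234 bp in Myc controls a, c and d. Heights given below were not scaled for this width. The authors' false discovery rate was 0.01 for Notch lists and 0.001 for control lists, so presence of a peak was not judged alike in the groups, and what part this has in the counts was not tested.

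Notch signal recurred at few places. Merging of overlapping peaks gave 22648 regions, and 14 of these (0.0618%) had a peak in at least 3 Notch libraries. Of the 14, 5 (0.0221% of all regions) had no peak in any control and 9 had 1 to 3 control peaks. For comparison, 2 regions (0.00883%) had a peak in at least 3 control libraries and none with Notch. At 5 regions all 4 Notch libraries had a peak. Fisher's exact test of presence, with Benjamini-Hochberg adjustment over all regions, called 0 regions, and 6 (0.0265%) reached an unadjusted p under 0.05, each more often present with Notch. No region had a peak in more than 3 control libraries, too few for the test to reach that p in the other direction. The shared direction of the 6 therefore says nothing about the groups. With 4 libraries against 6 this exact test cannot go below a p of 0.00476, which was reached at 2 regions with peaks in 4 of 4 Notch and 0 of 6 control libraries.

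The tallest recurrent Notch peak, region 1, lay at I from 12483530 to 12483989. Its normalized tag count, the tags in the peak per 10 M tags of the library, was 1472, 3681, 3065 and 3928 in Notch a, b, c and d, against 93.5, 262 and 245 in Myc controls a, c and d, and the Flag controls had no peak there. All Notch values lay above all control values, and the lowest Notch value was 5.62 times the highest control value. The means were 3036 ± 1104 in Notch (SD, n = 4) and 200.2 ± 92.8 in Myc controls (SD, n = 3), a difference in mean log2 of 3.97. It was at the smallest p that these libraries allow (exact permutation p = 0.0286, two-sided, adjusted p = 0.0571 over 2 regions by the Benjamini-Hochberg method), higher in 4 of 4 Notch libraries. Libraries without a peak have no deposited value, so the comparison holds only for libraries in which a peak was called.

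The shape of the peak differed too. The focus ratio, the share of tags lying on the side of the peak centre that their strand calls for, was 0.904, 0.893, 0.875 and 0.880 at region 1 in Notch a to d and 0.673, 0.742 and 0.592 in Myc controls a, c and d. Every Notch focus ratio was above every control one. Notch centres lay within 18 bp of each other. The control centres lay 88.5, -9.5 and -175.5 bp from the Notch mean in Myc controls a, c and d. That of Myc control c, the tallest control peak there, was thus at the same place as the centre of Notch a. The rise over the surrounding 10 kb was 24.1-fold in Notch a and 37.5-fold to 38.9-fold in the other 3 Notch libraries.

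Region 2, at V from 11770127 to 11770465, had normalized tag counts of 749, 1636, 1433 and 1758 in Notch a, b, c and d, against 92.7 in Myc control c, the only control with a peak. The lowest Notch value was 8.08 times that control value, and the Notch focus ratios of 0.876 to 0.927 were above the 0.83 of the control. Notch centres spanned 32 bp, and the control centre lay -93 bp from their mean. The Notch mean of 1394 ± 451 (SD, n = 4) was 1381 ± 551 without library c (SD, n = 3).

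Region 3, at I from 10588211 to 10588509, had normalized tag counts of 1148, 964 and 1369 in Notch b, c and d and no control peak. Its Notch focus ratios were 0.883, 0.912 and 0.910, and the 3 centres lay within 15 bp. It stands next to a stretch, I from 10589145 to 10589928, in which Notch a, b and c and 4 controls (Flag b and c, Myc a and c) had peaks of low focus, between 0.511 and 0.683. The highest normalized tag counts of that stretch were 4114 in Notch a and 5526 in Myc control a. Beside it, region 3 rose over its local background by 5.25-fold in Notch b, 18.5-fold in Notch c and 29.1-fold in Notch d, and Notch a had no peak in region 3 itself.

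The other 11 recurrent regions were lower. Their mean normalized tag counts in Notch were between 121 and 275, single values between 75.1 and 381.5, and no peak rose more than 13.4-fold over its local background. Mean focus ratios were between 0.737 and 0.853, and single Notch values at region 5 were as low as 0.633, in library c.

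Among these 11, 4 regions had no control peak. Region 5, at IV from 16656269 to 16656635, had normalized tag counts of 119, 381.5, 166 and 333 in Notch a, b, c and d. Region 9, at III from 9565839 to 9566243, had 81.7, 244, 135 and 180.1 in Notch a, b, c and d. These 2 were the regions present in every Notch library and in no control. Region 10, at I from 2639720 to 2640018, had 76.2, 249 and 132 in Notch a, c and d. Region 12, at II from 4047867 to 4048214, had 75.1, 137.5 and 168 in Notch a, b and c. In both, library c gave the highest value of the region.

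The remaining 7 regions shared their place with control peaks, and in height Notch stood clear of the controls at only 2 of them. At region 4, III from 3867397 to 3867752, Notch a, c and d had normalized tag counts of 198, 366.5 and 260.3, against 114 in Flag control b and 159.8 in Myc control c. At region 7, III from 10758760 to 10759311, Notch a, b, c and d had 127, 212, 148 and 215, against 80.3 in Flag control b and 97.1 in Myc control a. The Notch and control values did not overlap at these, although the lowest Notch value was just 1.24 and 1.31 times the highest control value. This holds for counts not scaled for peak width, which was 252 bp in Notch c and 156 bp in Myc control a. What part width has in these small margins was not tested.

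At the other 5 the values overlapped. Region 6, at II from 10563366 to 10563680, had 221, 194.5 and 201 in Notch a, b and d, against 96.6 in Flag control b, 115 in Myc control a and 198 in Myc control c. The difference in mean log2 there was 0.66 (exact permutation p = 0.2, smallest possible 0.1, two-sided, adjusted p = 0.2 over 2 regions). Region 8, at III from 7854491 to 7854831, had 102, 187 and 201 in Notch a, b and d, against 109 in Myc control a. Region 11, at IV from 654765 to 655106, had 95, 178 and 147 in Notch a, b and d, against 98.9 in Myc control a. Its Notch a value was below the control. Region 13, at IV from 13240469 to 13240831, had 102, 141 and 129 in Notch a, b and c, against 89.8 and 108.6 in Myc controls a and c. Region 14, at II from 14561667 to 14561988, had 143.5, 80.7 and 139 in Notch a, c and d, against 77.9 in Flag control b and 109 in Myc control a. Over the 9 regions with control peaks, all 9 had a Myc control peak and 4 had a Flag control peak, each of these in Flag control b.

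**Figure D1:**
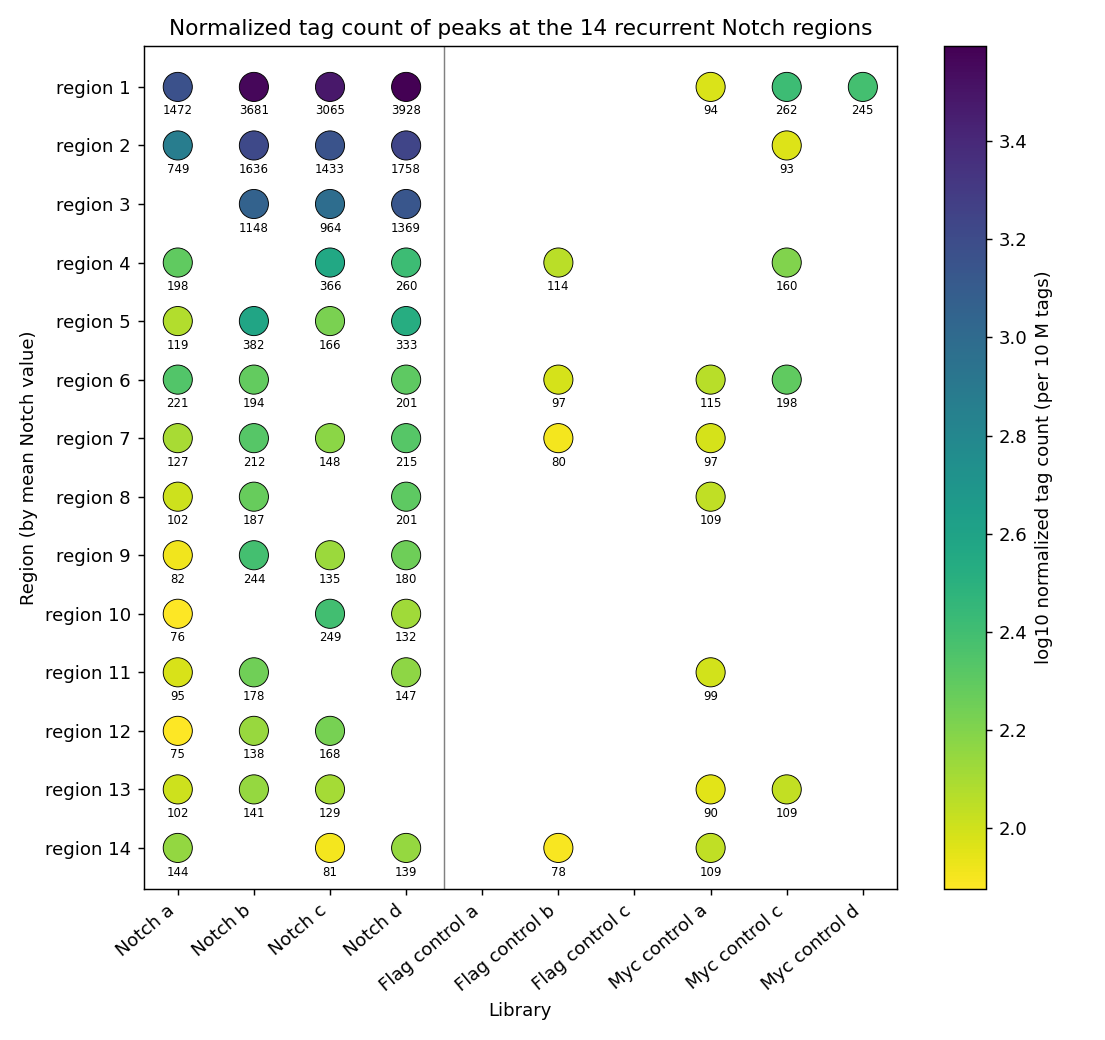
Normalized tag count (per 10 M tags, colour on a log10 scale, value printed under each point) of every peak in the 14 recurrent Notch regions, with the 4 Notch libraries left of the line and the 6 control libraries right of it. Regions 1 to 3 stand at 749 to 3928 in Notch, while no control peak in the 14 regions exceeds 262, and an empty place means that no peak was called.

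All 14 recurrent Notch regions lay where LAG-1 peaks also recurred. The LAG-1 lists, which took no part in choosing the regions, came from 4 libraries of worms of another strain, pJK1689, also labelled with the Myc antibody. By the labels, Notch and LAG-1 samples thus shared an antibody that no control had. A shared antibody and a shared binding place cannot be told apart where Notch and LAG-1 are set against controls. Their peaks recurred in at least 3 of 4 lists at 529 regions. Among these, 130 had a peak in any of the 4 Notch lists and 157 in any of the 6 control lists. Of the 22648 Notch and control regions, 1.06% fell in these 529. Of the 14 regions, 14 did so (100%, exact binomial 95% interval 76.8% to 100%, counting error only), 11 of them with a peak in all 4 LAG-1 lists. Exactly 2 Notch libraries had a peak at 65 regions (0.287% of all), 45 of which (0.199%) lacked a control peak, and of these 45, 4 did so, or 8.89% (exact 95% interval 2.48% to 21.2%). Regions in at least 2 controls and no Notch list, 226 in all (0.998%), did so in 16 cases, or 7.08%. Of the 9 regions with at least 3 control peaks (0.0397%), 4 lay in a recurrent LAG-1 region, all 4 of which also had a Notch peak. Neither of the 2 without a Notch peak did, and nor did the remaining regions with one. A peak in at least 1 LAG-1 list was found at 8 of the 9.

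The positions lay close together. The mean LAG-1 centre was within 50 bp of the mean Notch centre at 13 of the 14 regions, with differences of -45.4 to 83.75 bp and a median size of 25.9 bp. The exception was region 7, where the 4 Notch centres themselves spanned 287 bp. Over the 14 regions the span of Notch centres had a median of 69 bp, and regions 1, 2 and 3, with the tallest peaks, had spans of 18, 32 and 15 bp.

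LAG-1 peaks had the higher mean normalized tag count at 12 of the 14 regions and Notch peaks at 2, regions 1 and 2. At region 1 Notch had 3036 ± 1104 and LAG-1 2407 ± 1332 normalized tags, and at region 2 Notch had 1394 ± 451 and LAG-1 989 ± 386 (SD, n = 4 each), and the ranges of the libraries overlapped. At region 8 Notch peaks had normalized tag counts of 102 to 201, against 451 to 1229 in LAG-1, without overlap. Region 11 likewise had 95 to 178 in Notch and 374 to 1244 in LAG-1, and 8 of the 14 regions had every LAG-1 value above every Notch value. Peak width was 291 to 331 bp in the LAG-1 lists, against 194 to 299 bp in the Notch lists. What part this has in the heights was not tested. None of the 14 regions was on X, where 3797 of all 22648 regions lay, and chromosomes I, II, III, IV and V held 3, 3, 4, 3 and 1. With 14 regions this is too few to read as an absence from X. Of the regions in exactly 2 Notch lists, 7 of the 20 with a control peak and 5 of the 45 without one lay on X.

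**Figure D2:**
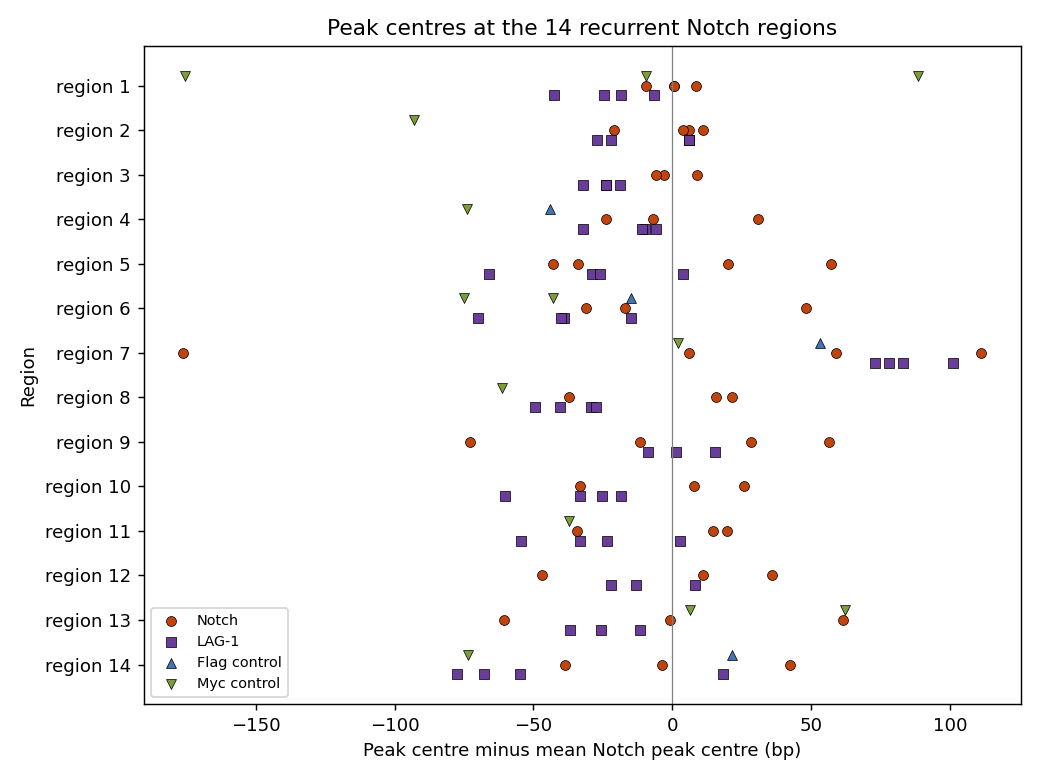
Distance in bp of each peak centre from the mean Notch centre at the 14 recurrent Notch regions, for Notch, LAG-1, Flag control and Myc control libraries. Notch centres of regions 1 to 3 span 15 to 32 bp, and the mean LAG-1 centre is within 50 bp of the Notch mean at 13 regions. Control centres at region 1 lie at -175.5, -9.5 and 88.5 bp.

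Library c had 88.5% of the 9335 regions with any Notch peak under its own peaks. Of the 14 recurrent regions, 11 had a peak in library c, against 13 in a, 11 in b and 12 in d. All 5 of those without a control peak had a peak in c, as did 6 of the 9 with one. Without c, 8 regions had a peak in all 3 remaining Notch libraries, and 2 of these, regions 5 and 9, had no control peak. Regions 3, 10 and 12 reached 3 Notch libraries only with c, so the control-free count became 2 in place of 5, against 3 when a, b or d was left out. The heights of regions 1 and 3 without c stayed within the spread between libraries. Region 1 had 3027 ± 1352 without c (SD, n = 3), and region 3 had 1259 ± 156 in libraries b and d, against 1160 ± 203 in b, c and d (SD, n = 3). Region 10 had 104 ± 39.5 in libraries a and d (SD, n = 2) and 152 ± 88.02 with c included (SD, n = 3).

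Most regions in exactly 2 Notch libraries included c. Of the 45 without a control peak, 41 (91.1%, beside the 88.5% of all Notch regions) paired c with another library, 25 of them with a, 15 with d and 1 with b. The other 4 had a pair without c. Of the 20 with a control peak, 14 (70%) included c. Of the 41, 3 lay in a recurrent LAG-1 region, none of them among the 25 shared by a and c. Counted without c, the regions with at least 2 Notch peaks and no control numbered 9 in place of 50 (0.221%), and 6 of the 9 lay in recurrent LAG-1 regions. With control peaks allowed there were 24, of which 16 did so.

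Within library c, peaks shared with another Notch list but with no control were as tall as those in no other list. The 46 regions of c with another Notch peak and no control had a median normalized tag count of 122.2, the same as the 7622 regions of c in no other list. Their median focus ratios were 0.860 and 0.847. Where a control list also had a peak, the 20 regions of c had a median of 150.5. For the same control-free classes, the medians in library a were 86.1 for 31 shared regions and 82.8 for 718 regions in no other list. In library b they were 150.85 for 8 regions and 103.9 for 20, and in library d 129 for 22 and 121 for 243. The 11 peaks of c at the recurrent regions had a median of 168, and ranged from second tallest of the list to rank 7878 of 8261, at region 14.

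Peaks of c alone seldom met LAG-1. Of its 8261 regions, 92.3% were in no other of the 10 lists, 0.799% had a peak in another Notch list and 7.18% a peak in a control list. Of the 7622 regions of c alone, 51 (0.669%) lay in recurrent LAG-1 regions. That share was 1.67% of 718 regions for library a alone, 15% of 20 for b alone and 1.23% of 243 for d alone. Regions in 1 control and no Notch list had 0.695%.

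**Figure D3:**
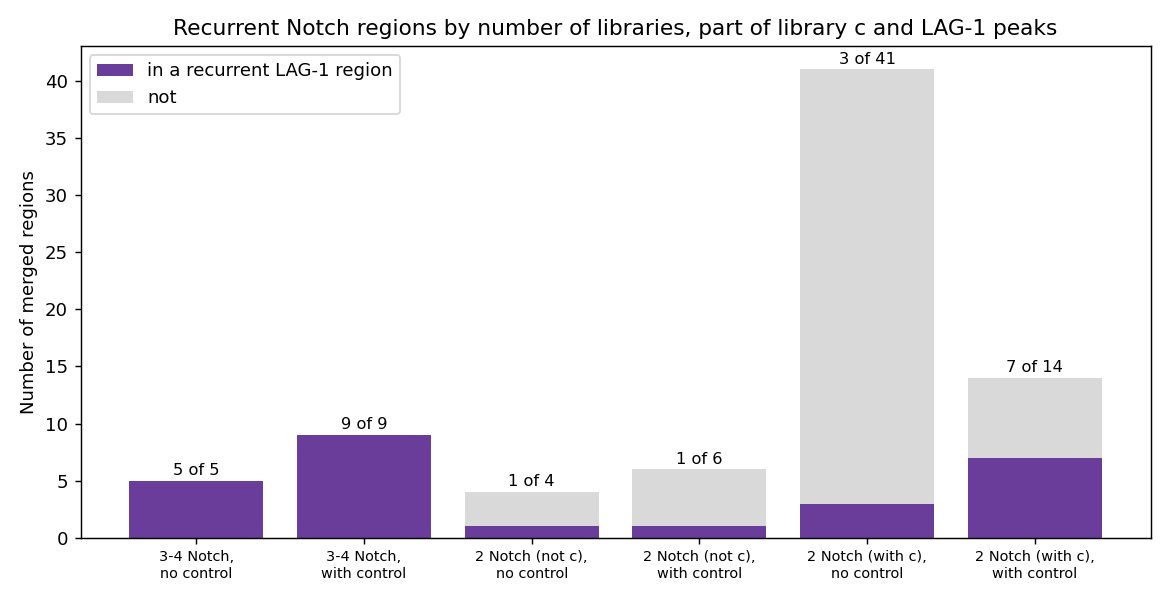
Number of merged regions by how many Notch libraries had a peak, whether library c was among them and whether any control had a peak, with the number in recurrent LAG-1 regions in purple. All 5 and 9 regions with 3 or 4 Notch libraries are purple, while of 41 regions that pair c with another library and lack a control peak 3 are.

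Of the regions in 2 Notch lists and no control, those that include c were led, by rank within their lists, by II from 8411650 to 8412035. It had normalized tag counts of 124 in Notch a and 183 in Notch c and no LAG-1 peak. The third of them, I from 506228 to 506504, had 151.5 in Notch b and 212 in Notch c, centres 5 bp apart and a peak in all 4 LAG-1 lists. Over the first 10 such regions the mean normalized tag counts were 112 to 182, and 3 lay in recurrent LAG-1 regions. The 4 pairs without c were X from 11603295 to 11603630 (a and d), V from 3686247 to 3686682 (b and d), IV from 4660373 to 4660703 (b and d) and IV from 5252211 to 5252593 (a and b). At IV from 4660373 the counts were 137.5 in Notch b and 196 in Notch d, with a peak in all 4 LAG-1 lists.

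Among the peaks of c alone, the tallest was I from 7652829 to 7653081 with a normalized tag count of 1562 and a focus ratio of 0.999, and next I from 670858 to 671110 with 325 and 0.987. The next 3 had 275 to 288 and focus ratios of 0.509 to 0.695. One position stood apart from every other peak of the 10 lists. At I from 2850879 to 2851131 library c held 136919 tags, which is 2.99% of the library and 22.2% of its tags in peaks, at a focus ratio of 0.993. Flag control a held 14428 tags at the same place, or 41.2% of its tags in peaks, and no other Notch or control list had a peak there. LAG-1 a also had one.

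Control peaks without Notch were led by II from 14366066 to 14366671, the only region in all 3 Flag controls. Its focus ratios were 0.562, 0.548 and 0.611 in Flag controls a, b and c, below the lowest single Notch value at the 14 recurrent regions. Others were sharper. At II from 9014459 to 9014828 the focus ratios were 0.794, 0.901 and 0.636 in Flag control c and Myc controls a and c. In Myc controls a and c they were 0.645 and 0.639 at II from 8419551, 0.803 and 0.831 at I from 4171976, and 0.706 and 0.667 at III from 13643423. The regions on I and III had a peak in all 4 LAG-1 lists. Tall peaks of low focus occurred in both groups. At I from 131595 to 133685 the highest normalized tag counts were 6556 in Notch a and 2751 in Notch b, against 8522 in Myc control a and 684 in Myc control c. The median focus ratio of that stretch was 0.5575. At II from 8418787 to 8421368 they were 299, 329 and 715 in Notch a, b and d, against 733 in Flag control c and 244, 246 and 693 in Myc controls a, c and d. Height alone thus did not set Notch apart from controls there. Both stretches were chosen for mention because of their values.

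**Figure D4:**
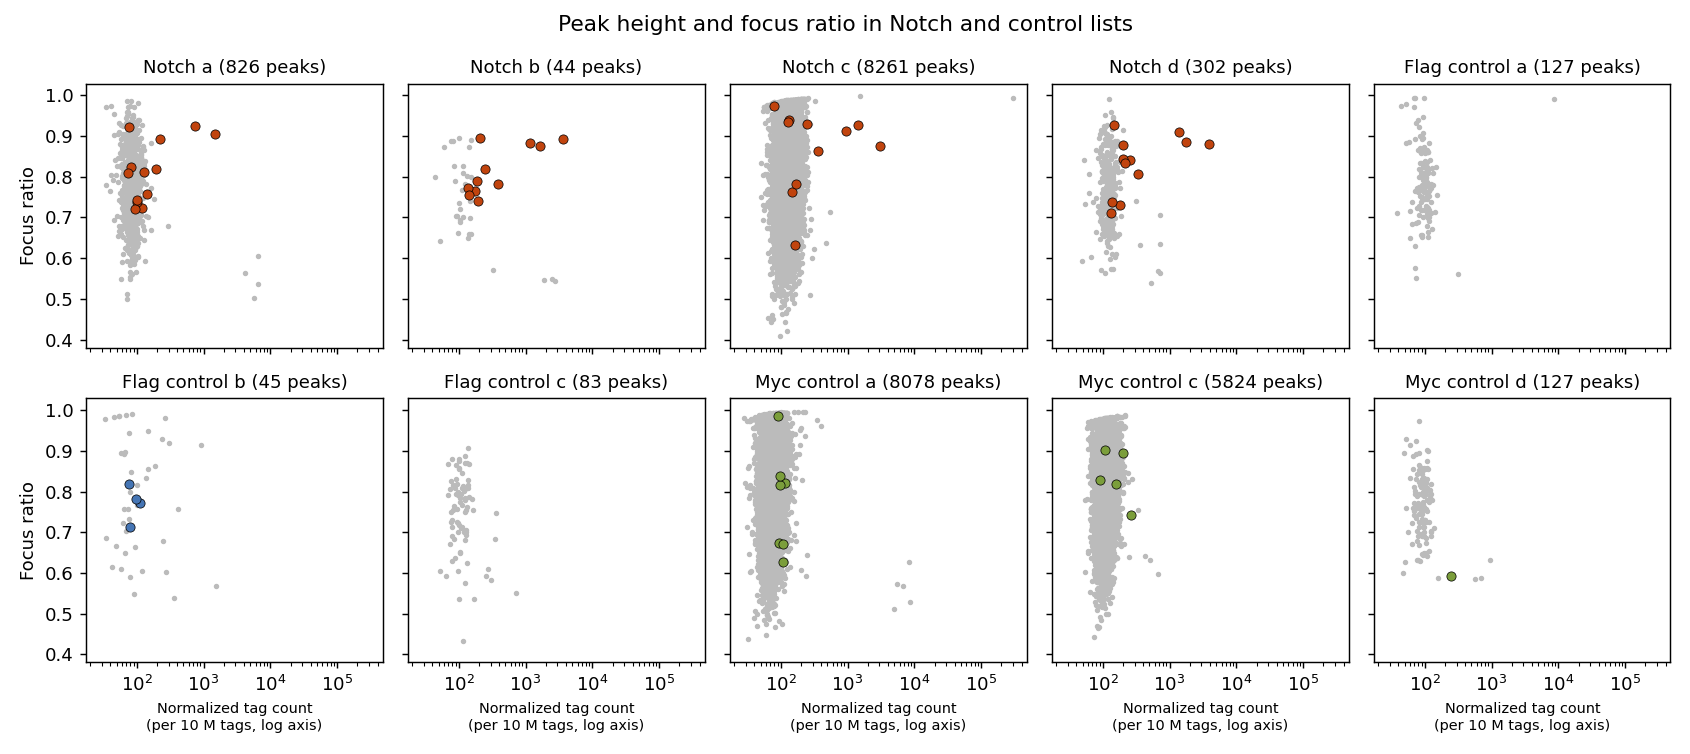
Focus ratio against normalized tag count (per 10 M tags, log axis) of every peak in the 4 Notch and then the 6 control lists, with peaks at the 14 recurrent Notch regions in colour. In Notch b, c and d the 3 tallest coloured points keep a focus ratio of 0.875 or more, whereas the tallest grey points in Notch a and Myc control a are all below 0.7. The single tallest grey points in Notch c and Flag control a are instead at 0.993 and 0.99.

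Summed over whole libraries, the peaks of Notch and of controls were hard to tell apart. The median focus ratio was 0.7865, 0.770, 0.847 and 0.774 in Notch a, b, c and d, against 0.780, 0.782 and 0.761 in Flag controls a, b and c and 0.837, 0.830 and 0.773 in Myc controls a, c and d. The groups overlapped, with means of 0.794 ± 0.0358 in Notch (SD, n = 4) and 0.794 ± 0.0317 in controls (SD, n = 6, exact permutation p = 0.976). The 3 lists of over 5000 peaks had the 3 highest values. Without Notch c the Notch mean was 0.777 and the difference turned to -0.017.

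Mean peak height was above that of controls in the Notch libraries, but the differences did not pass the test. Heights were not scaled for peak width, which was 194 to 299 bp in Notch lists and 156 to 272 bp in control lists. The part of width in these differences was not tested. The log2 of the median normalized tag count was 6.39, 7.10, 6.93 and 6.95 in Notch a, b, c and d, against 6.58, 6.33 and 6.77 in Flag controls a, b and c and 6.20, 6.72 and 6.55 in Myc controls a, c and d. The means were 6.84 ± 0.31 in Notch (SD, n = 4) and 6.52 ± 0.22 in controls (SD, n = 6), a difference of 0.32 (exact permutation p = 0.0810, adjusted p = 0.162 over 6 measures by the Benjamini-Hochberg method). For the 40 tallest peaks of each list, the mean log2 normalized tag count was 8.02 ± 0.40 in Notch (SD, n = 4) and 7.37 ± 0.50 in controls (SD, n = 6), a difference of 0.65 (exact permutation p = 0.0714, adjusted p = 0.162). Their median focus ratio was 0.805 ± 0.0453 in Notch (SD, n = 4) and 0.804 ± 0.0486 in controls (SD, n = 6, exact permutation p = 0.967, adjusted p = 0.976).

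The measure that came nearest to separating the groups was the share of the 40 tallest peaks inside recurrent LAG-1 regions. It was 32.5%, 45%, 17.5% and 42.5% in Notch a, b, c and d, against 10%, 32.5% and 2.5% in Flag controls a, b and c and 15%, 12.5% and 5% in Myc controls a, c and d. Flag control b overlapped the Notch range, and the other 5 controls lay below every Notch library. The means were 34.4% ± 12.5 in Notch (SD, n = 4) and 12.9% ± 10.7 in controls (SD, n = 6), a difference of 21.5 percentage points (exact permutation p = 0.0238, two-sided, adjusted p = 0.143 over 6 measures), which does not pass the adjusted threshold. Library c lowered the Notch value, and without it the Notch mean was 40% ± 6.61 (SD, n = 3) and the difference 27.1 points (p = 0.0238 by exact permutation, adjusted p = 0.143). With Flag control b left out, the control that overlapped the Notch range, the difference was 25.4 points (exact permutation p = 0.00794, adjusted p = 0.0476). Leaving out any other 1 library gave adjusted p of 0.0714 to 0.333 by the same exact permutation test, so the threshold was passed only without Flag control b. Each share rests on 40 peaks, with exact binomial 95% intervals of 29.3% to 61.5% in Notch b and 0.0633% to 13.2% in Flag control c. These 40 were nearly the whole list in Notch b (44 peaks) and Flag control b (45), but a small part of it in Notch c (8261) and Myc control a (8078). Over all its regions the share was 40.9% in Notch b and 28.9% in Flag control b. What part list length has in this measure was not tested. With recurrent LAG-1 regions defined by all 4 lists the difference was 13.75 points (exact permutation p = 0.0524, adjusted p = 0.162), and with the 20 tallest peaks it was 34.2 points (exact permutation p = 0.00952, adjusted p = 0.0571).

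**Figure D5:**
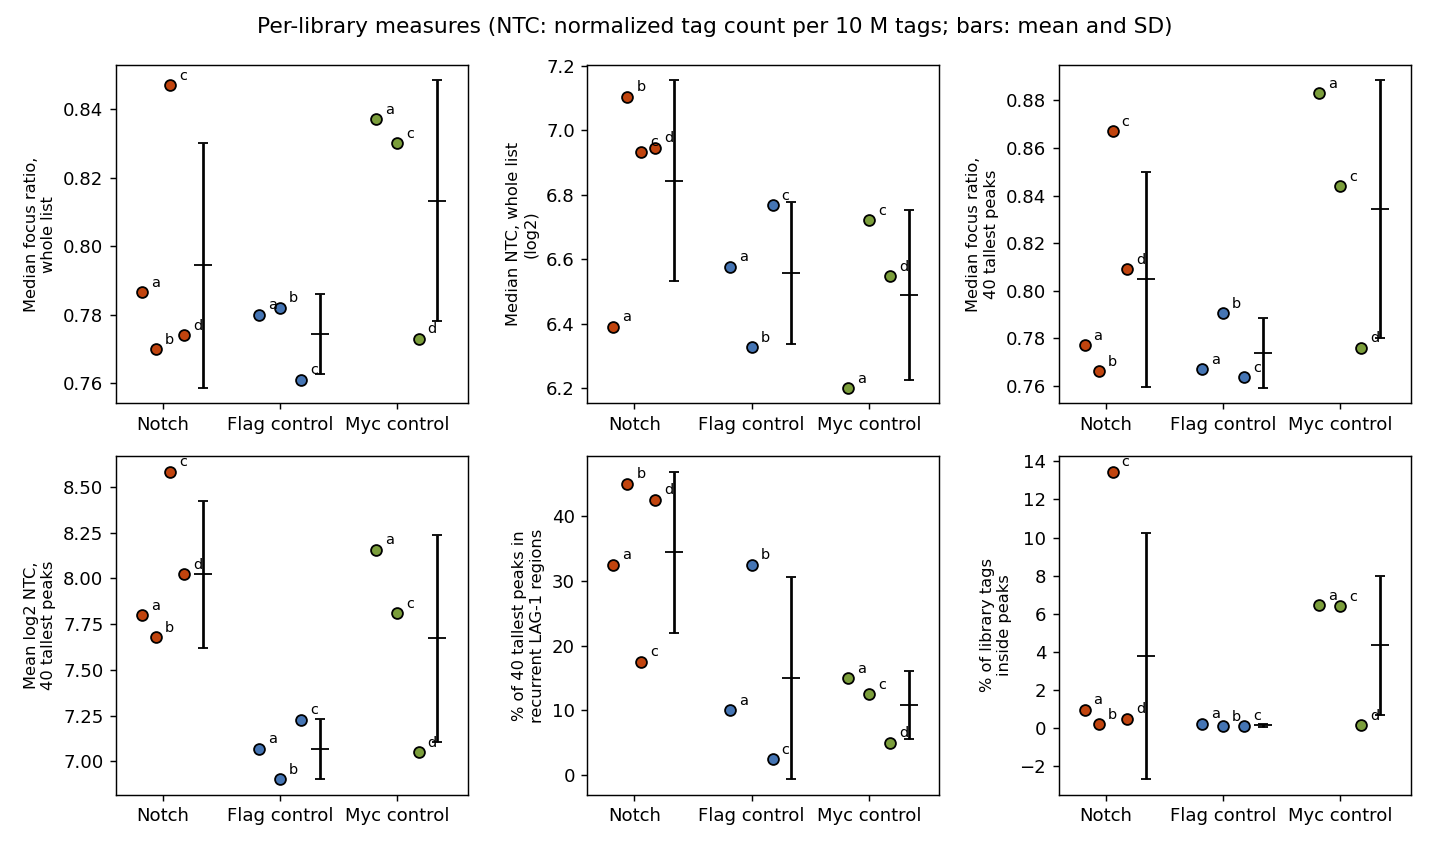
The 6 measures per library for Notch, Flag control and Myc control libraries (letters mark replicates, bars give the mean and SD of each group). The share of the 40 tallest peaks in recurrent LAG-1 regions is 17.5% to 45% in Notch and 2.5% to 32.5% in controls, and library c stands at 13.5% of tags inside peaks while the other Notch libraries are below 1%.

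The share of library tags inside peaks turned on library c. It was 0.955%, 0.188%, 13.5% and 0.475% in Notch a, b, c and d, against 0.209%, 0.0751% and 0.105% in Flag controls a, b and c and 6.46%, 6.40% and 0.137% in Myc controls a, c and d. The Notch mean of 3.77% ± 6.47 (SD, n = 4) was above the control mean of 2.23% ± 3.25 (SD, n = 6, exact permutation p = 0.657, adjusted p = 0.976), and without c the difference of 1.54 points turned to -1.69. Without the peaks at I from 2850879, where c and Flag control a stood apart, the difference was 0.809 points (exact permutation p = 0.838, adjusted p = 0.995), an alternative added after seeing the data.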

How the data were processed

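Chromatin immunoprecipitation sequencing peak lists of 4 Notch and 6 control libraries were analysed, with 4 LAG-1 lists as a further readout. The submitters' processing notes name build ce10 and the tools Bowtie, HOMER and CASAVA 1.8 (no other version is given). HOMER compared every library with its own input, per the file headers, and kept peaks at least 4-fold above it and above the 10 kb around. Per the file headers, the authors' normalized tag count is a signal per 10 M tags, and total tags are counts. The focus ratio is a fraction, the fold over input, local fold and clonal fold are ratios, and the peak score and p-value come from the authors' caller, all as deposited. Deposited input tags are a signal scaled by the authors.

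Here, overlapping peaks (1 bp or more) were joined into regions (Python 3.11.15, pandas 2.3.3). A recurrent LAG-1 region had a peak in at least 3 of 4 LAG-1 lists, merged over those lists alone. Differences in library means were tested by exact permutation over 210 splits, two-sided with a smallest p of 0.00476, adjusted over 6 measures, and regions by Fisher's exact test (SciPy 1.17.1). Both were tested on simulated data. Intervals and SDs cover counting error or the spread between libraries, and the number of tags in a peak (median 56 to 205 over the Notch lists) limits single values. Named regions were all those in at least 3 Notch libraries, the first 10 in 2 Notch libraries with c and those without c, the first 5 of c alone and the first 5 of controls alone. The members, lists and regions were chosen with earlier results of these data known. Replicate letters were not used to pair the samples in the main tests. Same-letter Notch and control libraries correlated at -0.108 to 0.0656 over 958 regions. This rests on called peaks alone, so it cannot tell whether same-letter libraries were prepared together. Gene assignment and sequence content were planned and not run, as no ce10 genome was used here.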

Additional observations from a re-analysis of the deposited data

Results flagged for a closer look

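Of 21 groups of the 4 Notch libraries examined for a single library far from the others, 2 had one, where chance alone gives about 1 in 20. Control libraries were not examined in this way. The share of library tags inside peaks was 13.5% in Notch c, against 0.188% to 0.955% in the other 3 Notch libraries. At I from 12483530, the fold over local background was 24.06 in Notch a, against 37.5 to 38.9 in the other 3, so that the gap made up 0.904 of the range. The control peaks at that place stood at 4.12 to 6.81 over local background, below Notch a.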

How the results depend on the processing

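Leaving out 1 library in turn gave 2 to 7 regions in at least 3 Notch libraries without a control peak (5 with all), 9 to 59 in at least 2 (50 with all, lowest without Notch c and highest without Myc control a) and 4 to 9 regions by Fisher's exact test before adjustment, at p under 0.05 (6 with all). Without Notch a or d the 50 became 23 or 32. The difference in median focus ratio ranged over -0.017 to 0.00918, that of the 40 tallest peaks over -0.02 to 0.0166, that of tags inside peaks over -1.69 to 2.74 points, and that of the LAG-1 share over 17.9 to 27.1 points. The LAG-1 share difference was 13.75 points for LAG-1 regions in all 4 lists and 34.2 points for the 20 tallest peaks, and that of tags was 0.809 points without the peaks near I 2850879. Requiring a fold over input of at least 6 left 8 to 2969 peaks a list and gave 6 regions in at least 2 Notch libraries, focus differences of -0.00617 and -0.00142 (40 tallest) and a LAG-1 share difference of 23.7 points (exact permutation p = 0.00476, adjusted p = 0.0286). Lists left with fewer than 40 peaks, such as Notch b (9) and Flag control c (8), entered the 40-tallest measures whole. Against Myc controls alone the focus differences were -0.0190 and -0.0296, that of tags -0.559 points and the Fisher count 2, and against Flag controls alone 10 regions met the rule of 3. Keeping focus ratios of at least 0.7, chosen after seeing the data, gave -0.00671 and -0.000917. Regions in at least 2 Notch libraries without a control numbered 16 without the 3 lists of over 5000 peaks, 33 when a larger overlap was needed and 79 when centres within 500 bp sufficed. The 40 tallest peaks of every list gave 3 regions in at least 3 Notch libraries, 7 in at least 2 and 3 in Fisher's exact test. With a replicate block the Fisher count was 2 and the LAG-1 share difference 21.5 points (exact permutation p = 0.0278, adjusted p = 0.167), and no other call changed, but no same-letter pair correlated above 0.1. A common p-value threshold removed 0 peaks, so it did not level the false discovery rates. The other 132 values kept their direction and side of the threshold or stayed close to their count. The cause of each change was not tested.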
